A study of Mus musculus with 5 samples.

Results

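The comparison is between 2 4C-seq libraries, which map the contacts of 1 chosen genomic site, in mouse embryonic stem cells. The series concerns elements in cis that control DNA replication. One library is from line 46C (wild type), grown on gelatin in GMEM with FBS and LIF, and the other from inbred cells with a CRISPR deletion labelled as a 45 kb boundary deletion. For the deleted cells the labels give neither the parent line nor its medium by name. Its members are windows of 5 kb on chromosome 16 (mm9). Of the 19951 windows in the inbred table, 19942 were kept, and the 9 windows at exactly 0 in the deletion library, from 48185001 to 48230000, were left out of both libraries. The table holds no windows from 48555001 to 48655000, a gap of 100 kb around the bait. Both libraries were then rescaled to the same total over the windows kept, which multiplied the deletion library by 0.990 relative to wild type. The labels do not say whether the deleted line is 1 clone or whether the deletion lies on both alleles. The series holds 5 samples, of which 1 library on each side enters here, so no value has a replicate check and no difference was tested.

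In 4C, DNA that lies close together in the fixed nucleus is ligated, and the fragments joined to 1 chosen site, the bait, are amplified and sequenced. The signal of a window therefore counts how often it was caught with the bait. Contacts fall steeply with distance along the chromosome. They are usually denser inside the domain that holds the bait, and domain boundaries are known as places where this density drops. The bait domain is named for Dppa2 and Dppa4, whose proteins bind chromatin in pluripotent cells. In the RefSeq annotation of GRCm38.p6 the protein-coding genes around them run, by rising coordinate, Cd96, Gm4737, Nectin3, Gm52257, Dppa4, Dppa2, Morc1, Trat1, Retnlb, Retnla, Retnlg and Dzip3. That build differs from mm9, so no gene was placed on the windows described here.

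The labels give the same bait primers for both libraries. They are shown because the viewpoint defines every value below, with capitals for the last bases that match the start of the HindIII site AAGCTT, the enzyme used for the first cut:
forward: agcgtgaggtacatgaAAGC
reverse: cctgaagagctggtaccaaa
The forward primer ends on 4 bases of that site. The reverse primer holds no GATC, the site of DpnII, the enzyme of the second cut. Neither primer has a match, on either strand, in the RefSeq promoter table of GRCm38.p6, which covers promoters alone. The bait position was thus taken from the gap and not from the primers.

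The deposited values are running means over 30 windows, or 150 kb. Undoing the running mean gave whole reads, within 0.01, in both libraries. These are called own reads below, since they belong to a window itself and not to its surroundings. On chromosome 16 wild type had 1714005 own reads and the deletion library 1772088. Although it was read more deeply, the deletion library had own reads in fewer of the windows kept, 8075 against 9128 (40.5% against 45.8%). Intervals on own reads are exact 95% counting intervals. 4C reads carry no molecular identifiers and are not independent molecules, so the intervals cover counting error alone and understate the uncertainty between cultures. Upstream means lower coordinates, and ratios are log2 of the deletion library over wild type.

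At the deletion itself, wild type had 9719 own reads in the 9 windows, or 0.567% of its reads (95% Wilson interval 0.556 to 0.578%). They lay in 6 windows, with 6062 reads in the window from 48215001 to 48220000 alone. The running mean hides this: it gives all 9 windows a wild-type signal between 1992 and 2622. The authors' table holds the deleted windows of the other library at 0, so reads from them could not be recovered and the loss could not be checked there. The neighbouring window on the bait side, from 48230001 to 48235000, held 6898 own reads in wild type and 526 in the deletion library, a log2 of -3.77. In the library with the 350 kb deletion, whose zeros end at the same coordinate, it held 0. The next window toward the bait was at 5079 and 5606 reads. The 4 read windows after it, up to 48270000, were all lower in the deletion library, from -0.66 (7834 and 5170 reads) to -0.32, and the window from 48275001 to 48280000 was higher, at 0.52. On the other side, the window that touches the deletion, from 48180001 to 48185000, held 5131 reads in wild type and 6203 in the deletion library.

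**Figure D1:**
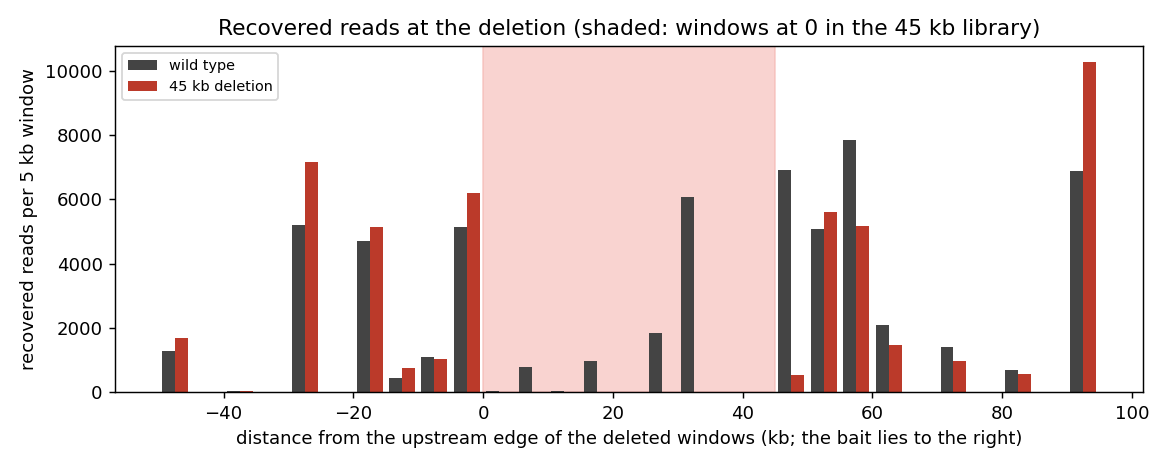
Recovered reads (y axis) in each 5 kb window from 50 kb beyond the deletion to 50 kb on its bait side (x axis, kb from the upstream edge), with dark bars for wild type and red bars for the 45 kb deletion. The window just right of the shaded deletion falls from 6898 to 526 reads, while the window just left of it rises from 5131 to 6203.

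Just beyond the deleted windows, as seen from the bait, the deletion library was higher. Over the nearest 50 kb it held 22052 own reads against 17899, a log2 of 0.24 (0.22 to 0.27). Of the 7 windows with reads there, 6 were higher, and the exception was the window from 48175001 to 48180000, at -0.13. The window with the most reads, from 48155001 to 48160000, went from 5199 to 7168 reads (log2 0.41). Leaving it out gave a log2 of 0.17 (0.14 to 0.21). A window of this stretch held on average 1790 own reads in wild type and 2205 in the deletion library, and a deleted window held 1080 in wild type. On the deleted chromosome the stretch takes the place of the deleted windows in distance from the bait.

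The deposited running mean showed the same direction, at 0.23, but it was not a fair comparison at this place. In the deletion library it skips the deleted windows and draws in windows from the bait side. With the running mean recomputed after leaving the deleted windows out of both libraries, the stretch was at -0.14. That value is not one of the stretch alone. In both libraries it also averages in windows from the bait side, among them the one with 6898 and 526 own reads. The higher value therefore rests on own reads alone, in 10 windows. From 50 to 100 kb beyond the deletion the running mean gave 0.20, and own reads gave -0.0014 (-0.042 to 0.040), with 9442 reads against 9808. From 100 to 250 kb own reads gave -0.00065 (-0.023 to 0.022). The gain thus did not extend past the nearest 50 kb in own reads.

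Farther upstream the ratio turned negative. From 250 to 500 kb beyond the deletion the deletion library held 32244 own reads against 38305, a log2 of -0.30 (-0.33 to -0.28), with -0.27 in the running mean. From 500 to 1000 kb it was -0.18 (-0.21 to -0.16). A run of 5 bins of 50 kb from 47550001 to 47800000 lay here, with a mean log2 of -0.45. Runs are neighbouring bins whose running mean is past a log2 of 0.25 in the same direction. The running mean and own reads of a run share many reads, so the direction of own reads over a run follows in part from the choice. In this run the mean signal per window was 600 in wild type and 440 in the deletion library. Own reads over the run were 25894 and 20373, and 4 of its 5 bins were below 0 in own reads. The bin from 47650001 to 47700000 held 3993 own reads in wild type and 2048 in the deletion library, a log2 of -1.02 (-1.10 to -0.94), while its neighbour up to 47750000 was at -0.18. These 2 bins were at 0.23 and 0.19 in the library with the 350 kb deletion, which is compared with the same wild-type library.

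Between the deletion and the bait gap lie 65 windows, which carried 21.7% of the signal in wild type and 22.2% in the deletion library, a log2 of 0.032. Own reads gave 0.021 (0.015 to 0.028), and 0.047 without the edge window. The stretch was thus nearly level as a whole, but its parts were not. In the 125 kb next to the gap own reads rose from 148025 to 175456, a log2 of 0.19 (0.18 to 0.20), with 0.12 in the running mean. In the 50 kb next to the deletion they fell from 30884 to 24592, a log2 of -0.38 (-0.41 to -0.36). Without the edge window that value was -0.051 (-0.077 to -0.026), so most of it came from that window. The stretches from 50 to 100 kb and from 100 to 200 kb were at 0.031 (0.012 to 0.051) and -0.090 (-0.10 to -0.080) in own reads.

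By 50 kb bin, own reads between the deletion and the gap went both ways. The bin from 48450001 to 48500000 had 45350 reads in wild type and 55389 in the deletion library, a log2 of 0.23 (0.21 to 0.25). The bins on either side of it were at 0.13 and 0.15. The bin from 48350001 to 48400000 went the other way, with 64556 and 56516 reads and a log2 of -0.25 (-0.26 to -0.23). The 2 bins nearer to the deletion, from 48250001 and from 48300001, were at 0.11 (0.081 to 0.14) and 0.020. So the 3 bins next to the gap were higher and 1 bin among those farther from it was lower. The window with the highest running mean went from the window at 48385001 to 48390000 in wild type to 48440001 to 48445000 in the deletion library.

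**Figure D2:**
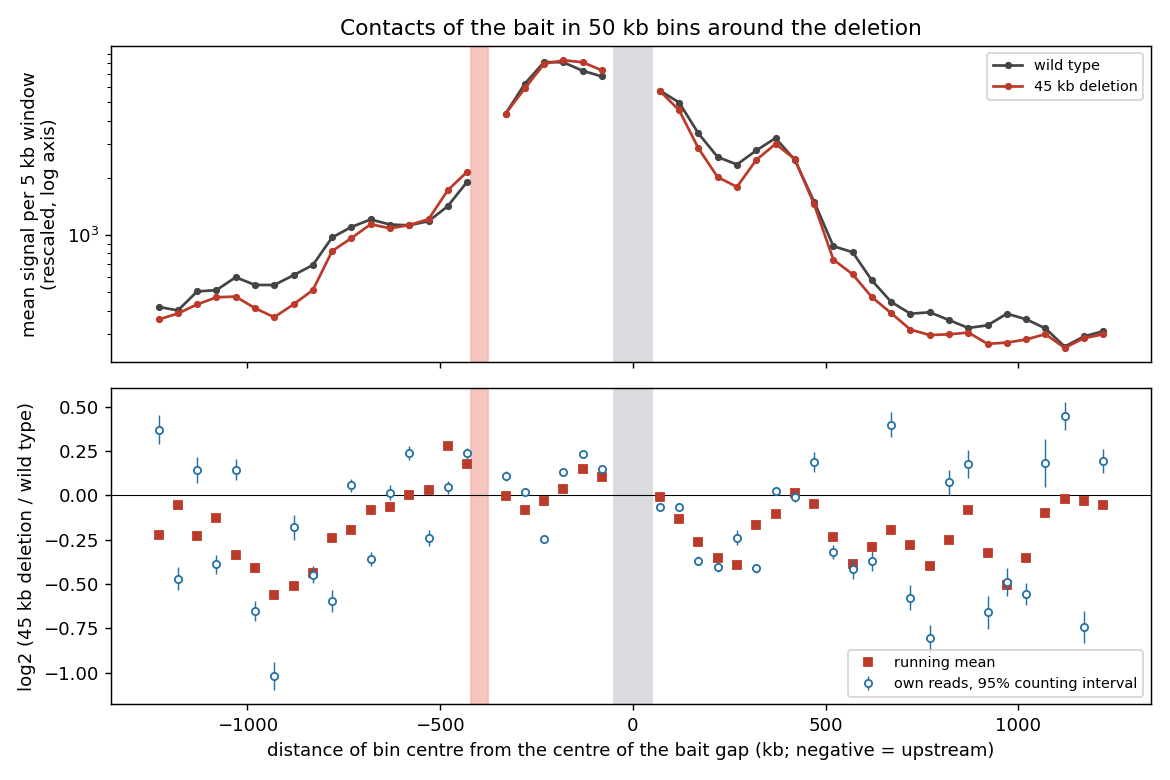
Upper panel: mean signal per 5 kb window (log axis, rescaled) in 50 kb bins of wild type (dark) and the 45 kb deletion (red) against distance from the centre of the bait gap in kb, with the deleted windows shaded red and the gap grey. Lower panel: log2 ratio from the running mean (squares) and from own reads (circles, bars for the 95% counting interval), in which the bins downstream of the gap lie mostly below 0 and the own reads scatter more widely than the running mean.

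The 25 windows with the highest summed share of reads held 20.3% of the wild-type reads and 20.9% of those of the deletion library. All lay within 400 kb of the gap centre, 18 upstream and 7 downstream. They ranged from -0.65 to 0.61 around a median log2 of 0.035, and 15 were higher. The highest, from 48410001 to 48415000, rose from 23046 to 26731 reads (log2 0.16). The window from 48430001 to 48435000 showed the top value, with 10587 and 16795 reads (log2 0.61, 0.57 to 0.64). The lowest ratio was at 48810001 to 48815000 downstream, with 14455 and 9591 reads (log2 -0.65, -0.69 to -0.61). Of the 100 windows with the most reads in each library, 91 were shared. So the libraries caught largely the same top fragments, in altered proportions.

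**Figure D3:**
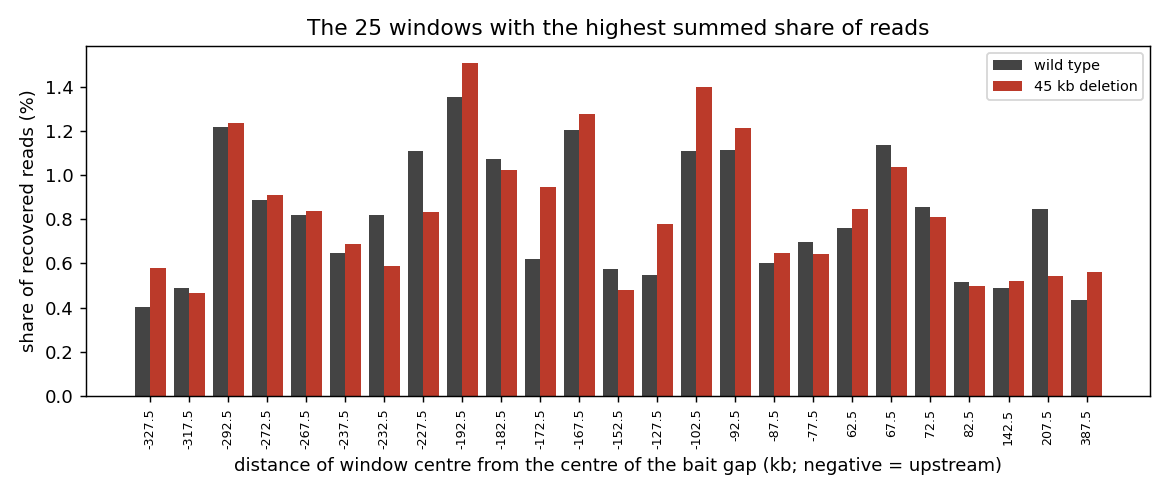
Share of own reads in percent (y axis) of the 25 top windows in wild type (dark) and the 45 kb deletion (red), ordered by distance of the window centre from the centre of the bait gap in kb (x axis). The bars at -172.5 and 207.5 kb show the widest differences, with log2 ratios of 0.61 and -0.65.

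Downstream of the bait, on the side away from the deletion, the deletion library was lower out to 2 Mb in all 4 distance classes. The share of the signal was 8.31% in wild type and 7.48% in the deletion library up to 0.25 Mb from the gap centre, a log2 of -0.15. It was 6.17% and 5.64% from 0.25 to 0.5 Mb (log2 -0.13), and 2.44% and 1.99% from 0.5 to 1 Mb (log2 -0.30). From 1 to 2 Mb it was 2.93% and 2.61% (log2 -0.17). Own reads gave -0.16, -0.12, -0.28 and -0.16 for these classes, each with an interval below 0. The widest ratio, at 0.5 to 1 Mb, was -0.28 (-0.30 to -0.26) on 42327 and 36296 own reads. Windows with reads were nearly as many in both libraries there, 72 and 73 of 100. The 350 kb library, set against the same wild-type library, was lower in the same 4 classes too, at -0.21, -0.22, -0.43 and -0.30, so the loss was not seen in the 45 kb library alone.

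Runs on this side were lower by more. They were picked for bins lower by more than 0.25 in log2, so this follows in part from the choice. A run of 3 bins from 48750001 to 48900000 had a mean signal of 2780 in wild type and 2221 in the deletion library, with a mean log2 of -0.33 and -0.36 in own reads. All 3 of its bins were lower in own reads. A local maximum followed at 48950001 to 49000000, where the signal was 3232 and 3011 (log2 -0.10), and own reads gave 0.026. So the dip between the gap and this maximum was deeper in the deletion library. Farther out, the run of 3 bins from 49500001 to 49650000 was at -0.39, with 10547 and 7450 own reads, and the run of 5 bins from 49950001 to 50200000 was at the same mean log2.

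The 2 sides of the bait thus differed. Within 1 Mb, the log2 ratio of upstream to downstream signal was 0.71 in wild type and 0.88 in the deletion library, a difference of 0.17. With equal totals the upstream side was level, with 27.7% and 27.9% of the signal, and the downstream side went from 16.9% to 15.1%. With the median ratio of bins beyond 2 Mb set to 0, the log2 of each side dropped by 0.17. That the upstream side was level thus rests on the scaling. The difference between the sides does not depend on the scaling, since it is taken within each library. In own reads it was 0.16. With wild type kept at its deposited values, deleted windows included, it was 0.12. Upstream, the class up to 0.25 Mb was at 0.065, that from 0.25 to 0.5 Mb at 0.0020, and those from 0.5 to 1 and 1 to 2 Mb at -0.17 and -0.16. The class from 2 to 5 Mb was at -0.11.

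**Figure D4:**
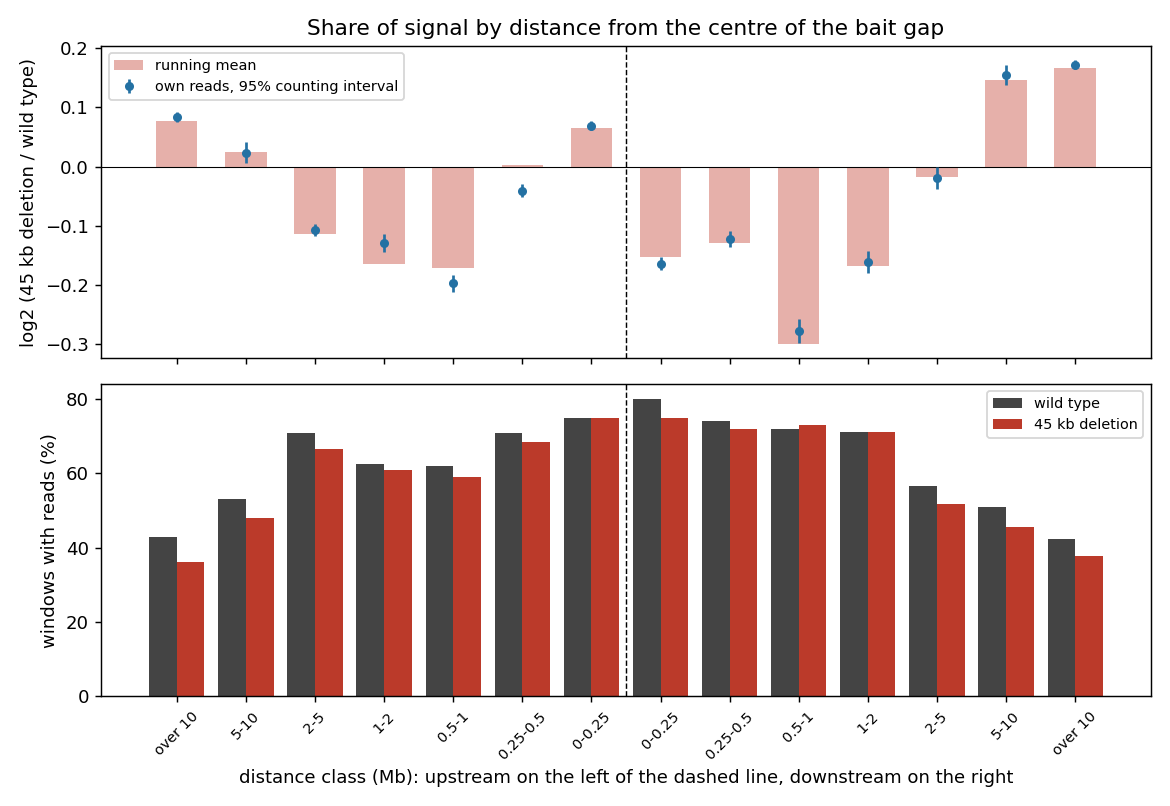
Upper panel: log2 ratio of the 45 kb deletion to wild type (y axis) in 14 distance classes in Mb from the gap centre (x axis, upstream left of the dashed line), with bars for the running mean and points for own reads with 95% counting intervals. Lower panel: percent of windows with own reads in wild type (dark) and the 45 kb deletion (red), which falls from 42.9% to 36.1% upstream and from 42.2% to 37.8% downstream beyond 10 Mb, where the ratios of the upper panel are above 0.

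Beyond 5 Mb the deletion library was higher in total, but not in every stretch. Over 10 Mb from the gap centre on both sides it held 33.2% of the signal against 30.5%, a log2 of 0.12, and 588598 own reads against 517330 (log2 0.13, 0.12 to 0.14). By side, the log2 was 0.17 downstream and 0.077 upstream over 10 Mb, and 0.15 and 0.024 from 5 to 10 Mb. Upstream the sign changed along the arm. It was 0.26 from 10 to 20 Mb and 0.14 from 20 to 30 Mb, but -0.18 over 30 Mb, where the share went from 5.41% to 4.77% and 25 of 31 bins of 500 kb were below 0. Own reads over 30 Mb upstream were 91731 and 84517, a log2 of -0.17 (-0.19 to -0.16). Downstream it was -0.028 from 10 to 20 Mb, 0.20 from 20 to 30 Mb and 0.24 over 30 Mb, so most of the downstream gain lay beyond 20 Mb. These signs depend on the scaling. With the median ratio of bins beyond 2 Mb set to 0, every log2 dropped by 0.17, and the classes over 10 Mb were at -0.0032 downstream and -0.092 upstream. What no scaling changes is the step between classes. Relative to the class over 10 Mb on the same side, the downstream class at 0.5 to 1 Mb was at -0.47 and that at 1 to 2 Mb at -0.33. Upstream these classes were at -0.25 and -0.24.

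The number of windows with reads moved the other way. Beyond 10 Mb, 5911 windows held own reads in the deletion library and 6795 in wild type, and 4575 were shared, which is 77.4% of the first and 67.3% of the second. The mean was 99.6 reads in a window with reads against 76.1. Within 1 Mb the windows with reads were 256 and 262, with 250 shared. So the far signal of the deletion library came from fewer windows with more reads each, and the part this plays in the far ratios was not tested. In the windows read in both libraries beyond 10 Mb the log2 was 0.23. That choice leaves out 20.4% of the wild-type reads beyond 10 Mb and 14.8% of those of the deletion library. It raises the ratio by itself, so 0.23 is not a larger gain.

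In 500 kb bins beyond 5 Mb, a bin was counted as past the fold above a log2 of 0.5 or below -0.5, which is 1.41 times. Among the 86 stronger bins, those whose mean signal over both libraries reached the median, 13 were above 0.5 (15.1%) and 1 was below -0.5 (1.16%). Above 0 were 64 of them, and their median log2 was 0.20. With the median ratio set to 0 these counts were 5 and 4. Since the deletion library helps to set this floor, a bin can pass it by being high there, and the excess of higher bins is in part made by the choice. With the median of the 350 kb library as the floor, which uses neither library compared, 11 bins were above 0.5 and 1 below -0.5, and 63 of 86 were above 0. With the median of wild type alone, a floor that favours lower bins, the counts were 6 and 5, and 54 of 86 were above 0. Without a floor 20 of 171 bins were above 0.5 and 16 below -0.5. The 14 bins past the fold among the 86 had the same direction in own reads, as did 166 of all 171 bins. Over 500 kb the running mean and own reads hold nearly the same reads, so this adds little. Of the 85 weaker bins, 34 were above 0, 7 above 0.5 and 15 below -0.5, with a median of -0.085. In the 350 kb library, over the same 86 bins, 16 were above 0.5 (18.6%) and 9 below -0.5 (10.5%). It shares the wild-type library.

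The highest of the stronger far bins was at 88000001 to 88500000, with a mean signal of 31.4 in wild type and 60.7 in the deletion library. It passed the floor, a mean signal of 41.3, only through the deletion library, as did the bins from 33.5 and 26.0 Mb below. Its log2 was 0.95 (0.84 in own reads, on 2667 and 4977 reads). The bin from 78000001 to 78500000 was at 0.87, with 3234 and 7205 own reads, and 47 windows with reads in each library. The bins from 22000001 to 22500000, 33500001 to 34000000 and 26000001 to 26500000 were at 0.81, 0.77 and 0.76. The number of windows with reads in these 5 bins was 40 to 49 in the deletion library and 43 to 57 in wild type, so their gain came from more reads in a window. The 350 kb library was at 0.55 and 0.53 in the bins from 88.0 and 78.0 Mb, at 0.097 and 0.060 in those from 22.0 and 26.0 Mb, and at 1.30 in the bin from 33.5 Mb.

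The lowest was at 9000001 to 9500000, with a mean signal of 50.3 in wild type and 34.1 in the deletion library, a log2 of -0.56 (-0.62 in own reads). It was followed by the bins from 29000001 to 29500000 at -0.46, from 41000001 to 41500000 at -0.40, from 16500001 to 17000000 at -0.38 and from 54000001 to 54500000 at -0.29. In the bin from 41.0 Mb the 350 kb library was on the other side of wild type, at 0.48. In the other 4 it was also below wild type, from -0.78 to -0.30.

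**Figure D5:**
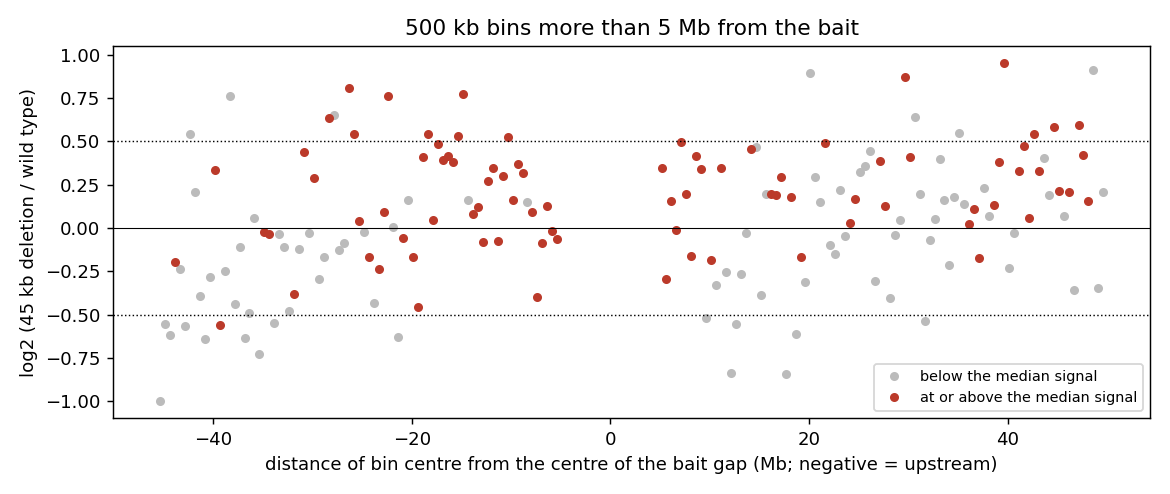
Log2 ratio of the 45 kb deletion to wild type (y axis) in 500 kb bins more than 5 Mb from the centre of the bait gap (x axis, Mb), with red points for the 86 stronger bins, grey points for the 85 weaker ones and dotted lines at -0.5 and 0.5. Of the red points 13 lie above the upper line and 1 below the lower line, while 15 grey points lie below the lower line.

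Within 5 Mb small losses prevailed among the bins with stronger signal. Of the 99 bins of 50 kb whose mean signal over both libraries reached the median, 83 were below 0 and 16 above, with a median log2 of -0.18 and the middle 50% from -0.32 to -0.040. Past the fold were 1 bin above 0.5 (1.01%) and 4 below -0.5 (4.04%). With the running mean undone, 17 bins were below -0.5 and 1 above 0.5. That setting puts the floor on own reads, so its bins are not the same 99. The 98 weaker bins had 56 above 0 and 42 below, with a median of 0.069, so over all 197 bins 125 were below 0. With the floor set by the 350 kb library, 78 of 99 bins were below 0 (median -0.17). Downstream 36 of 38 bins were below 0, and upstream 47 of 61. The running mean spans 150 kb, so a read can count in several adjacent bins of 50 kb. The counts are thus not of independent bins. Own reads had the same direction as the running mean in 139 of all 197 bins. Among the 99 bins picked on both libraries it was 72, with 25 of 38 downstream and 47 of 61 upstream. In the 350 kb library, over the 93 of these bins outside its own deletion, 5 were above 0.5 (5.38%) and 10 below -0.5 (10.8%).

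The 4 bins below -0.5 were at 46150001 to 46200000, in the pair from 47650001 to 47750000 described above, and at 49550001 to 49600000. The first of these, at -0.56, had a smaller loss in own reads, -0.25 (-0.32 to -0.19), while its neighbour from 46100001 was at -0.44 in the running mean and -0.76 in own reads. Both belong to the longest run, 9 bins from 45800001 to 46250000, with a mean signal of 450 in wild type and 353 in the deletion library and a mean log2 of -0.35. Own reads over the run were 35380 and 28259, and 8 of its 9 bins were lower. The run was picked on the running mean, so the lower own reads add little. The other runs of 5 or more bins in which every bin reached the median signal were 46550001 to 46800000, at -0.33 and lower in own reads in all 5 bins, and those from 47.55 and 49.95 Mb given above. In a run of 5 bins from 45150001 to 45400000, at -0.38, 3 bins reached it. Runs of 7 and 6 bins from 52800001 to 53150000 and from 53300001 to 53600000 were at -0.56 and -0.63, but no bin of theirs reached the median signal.

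Rises within 5 Mb were fewer and weaker in reads. The bin above 0.5, at 44550001 to 44600000 (log2 0.75), held 294 own reads in wild type and 392 in the deletion library, in 2 windows and 1 window. Its own log2 was 0.36 (0.14 to 0.58), and the rest of its running mean came from its surroundings. With a mean signal of 178 in wild type and 299 in the deletion library, it passed the floor of 238 only through the deletion library. So did the bin from 44450001, at 214 and 272. With the floor set by wild type alone, 0 bins were above 0.5. The bin from 44550001 belongs to the longest higher run, described next. This run holds 5 bins from 44450001 to 44700000, of which 2 reached the median signal. Its own reads were 7975 and 11591, a log2 of 0.48 (0.44 to 0.52). Most of that rise came from the bin from 44500001 to 44550000, below the median signal, with 2695 and 5231 own reads (log2 0.90). In the run 4 of 5 bins were higher in own reads. The exception was the bin from 44450001 to 44500000, at 0.34 in the running mean and -0.26 in own reads. The next longest higher runs, 4 bins each from 51400001 to 51600000 and from 52150001 to 52350000, were at 0.50 and 0.32, with no bin at the median signal. The remaining bins among the 5 highest were at 48100001 to 48150000 (0.28, own reads 0.046), 47150001 to 47200000 (0.27, own reads 0.17) and 48150001 to 48200000, of which 7 windows were kept (0.18, own reads 0.24). Of these, 48150001 to 48200000 lies at the edge of the deletion. Most of 48100001 to 48150000 lies within 75 kb of it, where the running mean is not a fair comparison either.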

How the data were processed

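Libraries were prepared with HindIII and DpnII, per the labels' protocols. Bowtie2 and builds mm9 and mm10 appear in the submitters' processing notes, without a version. The authors deposited coverage signal per 5 kb window, scaled to nearly equal totals, as a running mean over 30 windows; the table has no chromosome column and was read as chromosome 16 of mm9. The protocol names other primers than the bait sequences listed for the samples. Depth was 1714005 and 1772088 recovered reads.

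The step between neighbouring values gave the signal of 1 read, and differences over 30 windows gave each window's reads, with 0 windows below 0. The recovery code was run on simulated reads, smoothed with the same alignment and the same skipping of deleted windows that it assumes. Such data cannot test how the authors aligned or skipped windows. Bins are means of windows on a fixed grid with at least 50% of windows kept. Up to 5 Mb from the gap centre they are 50 kb, and beyond it 500 kb. Counts use bins whose mean signal over both libraries is at or above the median. Named are the 5 highest and 5 lowest bins of each set, the longest runs past 0.25, the fixed stretches, and bins next to them chosen after their values were seen. Intervals are Clopper-Pearson (ratios, conditional on the sum) or Wilson (shares). The members and lists were chosen with earlier results of these data known. The hybrid clones, with another bait and build, were not used here. Values were computed in Python 3.11.15 (numpy 2.4.6, pandas 2.3.3), intervals with scipy 1.17.1, and plots with matplotlib 3.10.9. Alternatives covered the running mean, scaling, gap, bin size, signal floor and bin summary.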

Additional observations from a re-analysis of the deposited data

Results flagged for a closer look

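In 7 stretches the 2 boundary deletions lay on opposite sides of the wild-type library they share, counting no window that either deletion removes. These were found among the 14 distance classes and the stretches flanking the 45 kb deletion. In the rest of these that hold windows outside both deletions, the 2 libraries lay on the same side. Each side is 1 library and the differences were not tested. The signs rest on scaling to equal totals. In the main comparison other scalings moved every log2 of the 45 kb library by -0.070 or -0.17. With the second, its upstream class up to 0.25 Mb was at -0.10 and its downstream class at 5 to 10 Mb at -0.024. Ratios near 0, such as -0.0039 and 0.0065 below, thus have no settled side. They are given as the 350 kb minus the 45 kb log2 ratio. By distance from the gap centre upstream, the difference was -0.072 up to 0.25 Mb (45 kb library 0.068, 350 kb library -0.0039), 0.83 at 0.5 to 1 Mb (-0.35 and 0.49), 0.43 at 1 to 2 Mb (-0.16 and 0.27) and 0.12 at 2 to 5 Mb (-0.11 and 0.0065). Downstream at 5 to 10 Mb it was -0.26 (0.15 and -0.11). By distance beyond the 45 kb deletion it was 0.83 at 250 to 500 kb (-0.32 and 0.51) and 0.60 at 500 to 1000 kb (-0.19 and 0.41). The last 2 stretches overlap the classes from 0.5 to 2 Mb. All these ratios come from the deposited running mean. Within 75 kb of the 350 kb deletion it is not a fair comparison. There it averages the deleted windows into wild type and skips them in the 350 kb library. The bins just upstream of that deletion, from 47800001 and 47850001, were at 0.56 and 0.72 in the 350 kb library. Both differences of 0.83 include these bins, and own reads were not compared for them.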

How the results depend on the processing

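The upstream to downstream difference stayed above 0 in every setting run (0.11 to 0.28); scaling alone cannot change it. The median of 50 kb bins stayed below 0 (-0.34 to -0.081). The stretch between deletion and bait and the 250 kb beyond the deletion did not keep their sign, so their direction as whole stretches is not settled. No paired analysis was possible because each side is 1 library.

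Scaling to equal totals beyond 2 Mb moved every log2 by -0.070. The median of 50 kb bins was then -0.25, the stretch between deletion and bait -0.038, the 250 kb beyond the deletion 0.023, and the upstream classes at 0 to 0.25 and 5 to 10 Mb -0.0047 and -0.046. Of the 500 kb bins 8 were higher and 2 lower (median 0.13). With the median ratio beyond 2 Mb set to 0, 22 bins of 50 kb were lower (median -0.34). The same 2 stretches were at -0.14 and -0.076, the upstream classes at 0 to 0.25, 5 to 10 and over 10 Mb at -0.10, -0.14 and -0.092, and the downstream classes at 5 to 10 and over 10 Mb at -0.024 and -0.0032. The 125 kb next to the gap were at -0.052, and 5 bins of 500 kb were higher and 4 lower (median 0.027). With no rescaling and the deleted windows put back, which are 2 choices changed together, the upstream to downstream difference was 0.12 and the stretch between deletion and bait 0.047.

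With the running mean undone, 17 bins of 50 kb and 0 of 500 kb were lower, the difference of the sides was 0.16, the stretch between deletion and bait 0.021, and the stretches 50 to 100 kb beyond and on the bait side of the deletion -0.0014 and 0.031. Recomputed without the deleted windows, the running mean gave 0.15 for the sides, -0.055 for the 250 kb beyond the deletion, and -0.14 and -0.011 for its 0 to 50 and 50 to 100 kb. Near the deletion this running mean also averages in windows from the bait side. The median of windows gave 0.28 for the sides, 0.076 between deletion and bait, and -0.0031 for the 250 kb. It gave 0.078, -0.020 and -0.029 for the upstream classes at 2 to 5, 5 to 10 and over 10 Mb, and 20 higher bins of 500 kb.

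Leaving out 0.25 Mb around the gap gave 2 higher bins of 50 kb, 0.11 for the sides and -0.054 for what is left between deletion and bait. Leaving out the windows of the 350 kb deletion gave 2 higher bins and 0.16. Bins of 25 kb gave 2 higher and 12 lower, and bins of 100 kb 1 lower. These counts are out of other numbers of bins than the 99 of 50 kb, so they cannot be compared with its counts. Without a signal floor 6 of 197 bins of 50 kb were higher and 18 lower (median -0.081). Of the 171 bins of 500 kb, 20 were higher and 16 lower (median 0.089). At the upper quartile, which keeps fewer bins, 0 and 2 of 50 kb, and 5 and 0 of 500 kb, passed.

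Of the settings chosen after seeing the data, own reads of windows read in both libraries gave 4 higher and 17 lower bins of 50 kb, 2 lower of 500 kb, 0.16 for the sides, -0.0030 between deletion and bait, 0.052 for the 250 kb, and -0.020 and 0.0070 for the stretches 50 to 100 kb beyond and on the bait side. Own reads without the 25 highest windows gave 18 lower bins of 50 kb and 0 of 500 kb, 0.11 for the sides, -0.095 between deletion and bait, 0.0091 at 100 to 250 kb beyond and 0.12 at 50 to 100 kb on the bait side. Own reads without the edge window gave 17 and 0 lower bins, 0.041 between deletion and bait, 0.073 for the 250 kb, and -0.0068 and 0.026 for the 50 to 100 kb stretches. With the floor set by wild type alone, 0 bins of 50 kb were higher, and 6 of 500 kb were higher and 5 lower (median 0.12); set by the 350 kb library, 2 of 50 kb were higher. The cause of these changes was not tested.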
